A study of Mus musculus with 6 samples.

Results

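The mitochondrial respiratory chain is built from protein complexes encoded partly by the nucleus and partly by mitochondrial DNA, and the results here concern its nuclear genes in mouse tumours with and without the gene Siglece. They were taken by name: every deposited gene symbol of the Nduf a, b, c, s and v series, Sdha to Sdhd, the Uqcr genes, the Cox4 to Cox8 genes and the Atp5 genes, with Cyc1 and Cycs. That rule matched 102 of 55291 symbols, and 11 names marked as pseudogenes were dropped, which left 91 genes. They comprised 39 genes of complex I, 4 of complex II, 9 of complex III, 21 of complex IV, 17 of complex V and Cycs. Of the 91, 88 matched the GENCODE M21 annotation (mouse build mm10) by symbol and position, lying on 19 chromosomes: 84 as protein-coding genes and 4 as processed pseudogenes (Ndufs6b, Cox6c2, Ndufb4c and Ndufa11b).

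The libraries came from subcutaneous tumours of CT2A, a mouse glioblastoma cell line. The KO group held 3 libraries from mice labelled as Siglece knockout and the WT group 3 from wild-type mice, all carrying the same tumour line with no treatment named. They are called KO1 to KO3 and WT1 to WT3 here; the numbers are names only and pair no samples. The labels give brain as the source and a subcutaneous tumour as the tissue, describe the sampled material as CT2A cells, and name neither the knockout allele nor the age or sex of the mice. Libraries were made by Smart-seq2, a full-length cDNA method for small amounts of RNA, and held 24369359 to 40574093 gene counts each. Siglece, an inhibitory sialic acid receptor of myeloid cells, had 0, 8 and 0 counts in KO1 to KO3 and 74, 99 and 64 in WT1 to WT3.

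Electrons enter the chain at complex I (NADH dehydrogenase) or complex II (succinate dehydrogenase), pass through complex III and cytochrome c to complex IV (cytochrome c oxidase), and the proton gradient made on the way drives complex V, the ATP synthase. Complex II is encoded wholly in the nucleus and also belongs to the citric acid cycle. Several small subunits of complex IV exist as alternative isoforms: Cox6a2, Cox7a1 and Cox8b replace Cox6a1, Cox7a2 and Cox8a in heart and skeletal muscle, and Cox4i2 and Ndufa4l2 are known as hypoxia-responsive forms found in lung and in vascular mural cells. The transcription factor NRF1 and factors of the ETS family are known regulators of many common subunits, whereas E-box elements serve muscle regulatory factors.

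Upstream sequences of 4 genes are shown because the results turn on the contrast between common and muscle isoforms and on Sdha, the 1 common subunit whose KO libraries were all above the WT libraries in counts scaled to library size. They are RefSeq sequences of build GRCm38.p6, read 5′ to 3′ on the gene's strand and ending at the base before the gene's annotated start in the deposited table; capitals mark the NRF1 motif (GCGCA, any 1 base, then GCGC), the ETS motif CCGGAAG or the E-box CAGCTG on either strand. Sdha lies on the minus strand, chr13:74350281-74350360, Cox6a1 on the minus strand, chr5:115348982-115349078, Cox8b on the minus strand, chr7:140900447-140900566, and Cox7a1 on the plus strand, chr7:30184051-30184143.
Sdha: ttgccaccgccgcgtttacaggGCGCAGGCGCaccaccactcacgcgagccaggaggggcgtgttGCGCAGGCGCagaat
Cox6a1: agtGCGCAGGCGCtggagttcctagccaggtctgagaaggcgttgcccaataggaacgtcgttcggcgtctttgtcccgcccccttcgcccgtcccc
Cox8b: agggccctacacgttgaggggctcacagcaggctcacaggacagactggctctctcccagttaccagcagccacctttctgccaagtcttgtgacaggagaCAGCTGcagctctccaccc
Cox7a1: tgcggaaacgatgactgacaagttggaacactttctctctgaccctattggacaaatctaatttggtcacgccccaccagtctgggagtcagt

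The windows of Sdha and Cox6a1 hold the NRF1 motif 2 times and 1 time. Cox8b holds an E-box and neither other motif, and Cox7a1 holds none of the 3. Cox6a1 is the partner of neither muscle form shown. The windows of their own common partners, Cox8a and Cox7a2, also hold none of the 3 motifs, so the shown genes do not give a contrast between partners in NRF1 motifs. Over the 250 bases before the RefSeq start, the NRF1 motif was present in 13 of the 70 respiratory chain genes with an entry (18.6%) and in 4.23% of all 27025 genes. The ETS motif was present in 12 of the 70 (17.1%) against 7.83% of all genes, and the E-box in 6 of the 70 (8.57%) against 14.7%. Among the muscle and tissue isoforms of complex IV with an entry, 0 of 4 held an NRF1 or an ETS motif and 1 of 4, Cox8b, held an E-box. These matches describe letters in a window and no binding was measured.

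Libraries of both groups stood apart before any comparison. All 91 genes summed to 1.55% of the counts in WT1 and to 0.934% and 0.946% in WT2 and WT3; in KO1 to KO3 the sums were 0.642%, 0.843% and 0.979%. Cytosolic ribosomal protein genes, 90 symbols of the Rpl and Rps series, took 12.3% of the counts in WT1 and 3.22% to 6.02% in the other 5 libraries. Markers of glial cells, the lineage of the tumour line, were summed in CPM (counts scaled to the library size). They came to 68.3, 563 and 47.8 in KO1 to KO3 and to 779 to 785 in the WT libraries. Gfap was at 0 in KO3. Thus KO2 was nearer to the WT libraries than KO1 and KO3 in these markers. In the test given below, 1 of 7, Slc1a3, was called lower and 0 higher, beside 0.226% and 11.2% of all tested genes. Levels of 6 of the 7 were lower in all KO than in all WT libraries (85.7%, beside 19.5% of all tested genes). The tissue is a bulk sample, so fewer cells of a type and less RNA per cell cannot be told apart.

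Members were compared between groups on counts with edgeR's quasi-likelihood test over 18621 genes with enough reads, at a Benjamini-Hochberg adjusted p of 0.05. Values for a gene are its counts scaled by library size and TMM factor (CPM), unless TPM, the level per length of the gene, is named. A log2 fold change is KO over WT, and SE is its standard error. None of the 87 respiratory chain genes tested passed in either direction, against 11.2% of all tested genes called higher and 0.226% called lower; the smallest adjusted p was 0.0648, for Cox8b. At an unadjusted p under 0.05, 3 were higher and 11 lower, beside 22.2% and 9.57% of all genes. DESeq2 on the same genes called 3 higher and 6 lower, beside its own 17.5% and 6.68%, and limma-voom called 0 in either direction, beside 5.31% and 0.166%.

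Fold changes of the nuclear genes were mostly negative and small: 61 of 87 genes had a negative and 26 a positive log2 value, with a median of -0.26 beside -0.05 over all tested genes. The range ran from -1.34 for Cox6b2 to 3.61 for Cox8b. Levels of 16 genes were lower in all KO than in all WT libraries (18.4%, beside 19.5% of all tested genes). Levels of 3 genes were higher in all KO libraries: Cox8b, Ndufa4l2 and Sdha (3.45%, beside 24.6%). These counts depended on the scale: in TPM 34 of the 87 genes were lower without overlap (39.1%, beside 12.3% of all tested genes) and 7 higher (8.05%, beside 22.4%). Of the genes apart in CPM, 14 of 16 and 3 of 3 were also apart in TPM. Overlap of single genes is given in CPM from here on, where TPM is not named. The median depended on single libraries, being 0.20 without WT1 and -0.68 without KO3, and it was -0.15 with both left out.

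**Figure D1:**
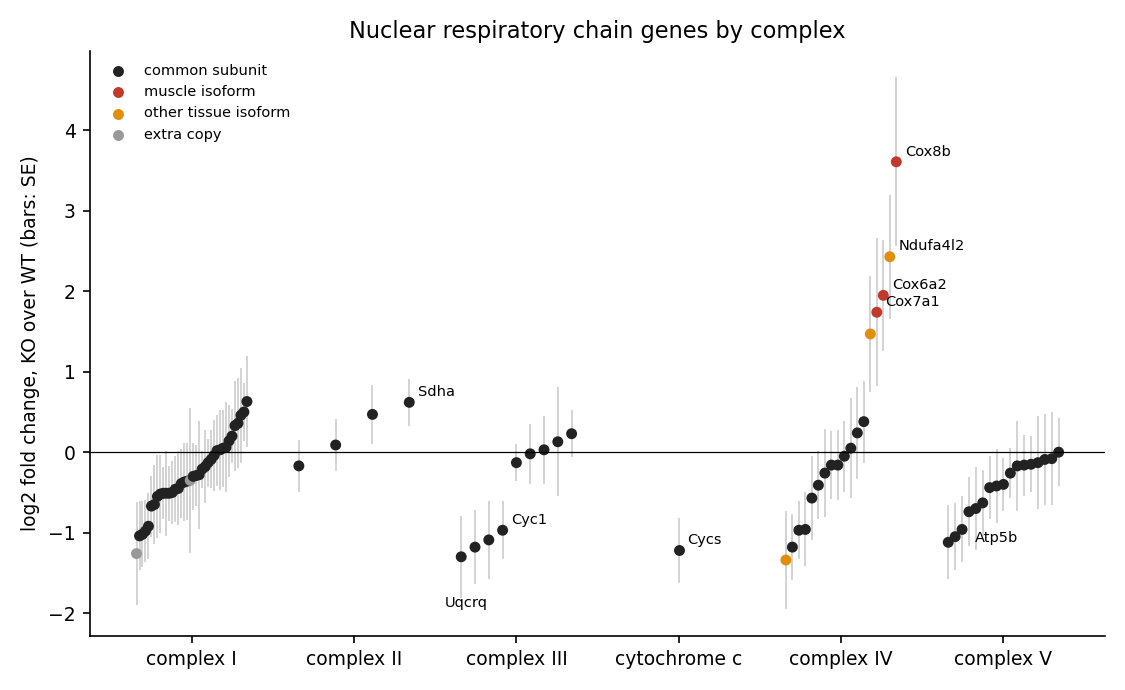
Log2 fold change of KO over WT (vertical axis, bars are SE from edgeR) for the 87 tested nuclear respiratory chain genes, ordered within each complex. Most points lie below 0; the muscle isoforms Cox8b, Cox6a2 and Cox7a1 and the tissue isoform Ndufa4l2 lie highest, at 3.61, 1.95, 1.74 and 2.43.

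Complex I, the largest complex, showed lower summed levels in KO1 and KO2 than in any WT library, with KO3 above WT2 and WT3. Its genes summed to 0.358%, 0.431% and 0.526% of all TPM in KO1 to KO3 and to 0.723%, 0.484% and 0.487% in WT1 to WT3. The means were 0.438 ± 0.0845% (SD, n = 3) and 0.565 ± 0.137% (SD, n = 3), and the groups overlapped. The exact two-sided permutation p was 0.3 (0.5 adjusted over 5 complexes), where 0.1 is the smallest p that 3 against 3 libraries can give. The difference of means was -0.126 percentage points and -0.0473 without WT1.

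Within complex I, the 7 core genes tested, which carry the flavin and iron-sulphur centres, had a median log2 fold change of -0.18, and the 29 accessory genes had a median of -0.39. Ndufv1, the core subunit that binds NADH, was at 66.2, 42.3 and 74.9 CPM in KO1 to KO3 and at 63.7, 35.1 and 31.1 in WT1 to WT3 (log2 fold change 0.50, SE 0.36). Ndufa1, a small membrane subunit needed for assembly, was at 32.2, 24.9 and 89.1 CPM in KO and at 50.5, 21.7 and 22.1 in WT (0.63, SE 0.56). Both had the highest fold changes of complex I, and in both genes the groups overlapped.

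At the other end, Ndufb9, an accessory subunit of the membrane arm, was at 57.6, 99.2 and 85.9 CPM in KO and at 274, 113 and 111.5 in WT (-1.04, SE 0.43; edgeR adjusted p 0.145). Every WT library was above every KO library, but KO2 and WT3 differed little and WT1 lay far above both. Ndufs6b, annotated as a processed pseudogene of Ndufs6, was at 0.646, 0.427 and 0.798 CPM in KO and at 2.43, 1.196 and 0.833 in WT (-1.26, SE 0.64). Its counts may hold reads of Ndufs6, so this value is uncertain. Of the 38 complex I genes tested, 5 were lower without overlap (13.2%, beside 19.5% of all genes) and 0 higher: Ndufb6, Ndufs6b, Ndufc2, Ndufa12 and Ndufb9. Ndufa2 was the complex I gene of highest level per merged exon length. It was at 399, 434 and 891 TPM in KO and at 1164.3, 536 and 521 in WT. KO3 and WT1 were high and the groups overlapped. The remaining tested genes ran from -1.02 for Ndufa12 to 0.46 for Ndufa3. Ndufa11b, with 3 counts in 6 libraries, was not tested.

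Complex II took almost the same share of TPM in every library. Its 4 genes summed to 0.0547%, 0.0546% and 0.0573% of TPM in KO1 to KO3 and to 0.0512%, 0.0587% and 0.0572% in WT1 to WT3. The means were 0.0555 ± 0.00154% and 0.0557 ± 0.00399% (SD, n = 3 each; exact permutation p 1). The WT1 library, highest for the other complexes, was lowest here in TPM. In summed CPM complex II varied more, at 450, 368 and 634 in KO1 to KO3 and at 519, 356 and 347 in WT1 to WT3. On that scale KO3 was highest and WT1 next.

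Sdha, the flavoprotein that oxidizes succinate, was at 153, 109.8 and 192 CPM in KO1 to KO3 and at 105, 97.3 and 92.9 in WT1 to WT3. The lowest KO library was above the highest WT library, and the fold change was 0.62 on the log2 scale (SE 0.29; edgeR adjusted p 0.176). Without KO2 it passed the threshold, at 0.79 (adjusted p 0.0309), among 22.7% of all genes called higher in that fit. Sdhb, the iron-sulphur subunit, was at 105, 87.3 and 112 CPM in KO and at 164, 86.3 and 91.7 in WT (-0.17, SE 0.32). The membrane anchors lay between: Sdhc was at 84.4, 69.7 and 151 CPM in KO and 99.4, 62.3 and 59.1 in WT (0.47, SE 0.37), and Sdhd at 107, 101 and 178 CPM in KO and 150.4, 110.2 and 103 in WT (0.09, SE 0.32). Groups of these 3 genes overlapped.

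Complex III, which passes electrons from ubiquinol to cytochrome c, took a lower share of TPM in all KO libraries. It summed to 0.138%, 0.205% and 0.193% of TPM in KO1 to KO3 and to 0.375%, 0.254% and 0.263% in WT1 to WT3. The difference of means was -0.119 percentage points, from 0.179 ± 0.0358% in KO and 0.298 ± 0.0676% in WT (SD, n = 3 each). The exact permutation p was 0.1, the smallest possible, and 0.25 adjusted over 5 complexes. The difference was -0.0799 without WT1 and -0.0873 without WT1 and KO3.

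The lowest fold changes of complex III belonged to Uqcrq, Uqcr11, Uqcr10 and Cyc1, and the other 5 genes had values from -0.13 to 0.23. Uqcrq, a small subunit near the ubiquinone site, was at 93.3, 177 and 177 CPM in KO and at 651, 228 and 224 in WT (log2 fold change -1.30, SE 0.51; edgeR adjusted p 0.131). Uqcr11, another small accessory subunit, was at 40.5, 58.3 and 74.1 CPM in KO and at 225, 78.5 and 88.1 in WT (-1.18, SE 0.46). Every WT library was above every KO library in both genes, with WT1 far above WT2 and WT3. Cyc1, the catalytic cytochrome c1, was at 99.1, 159 and 72.5 CPM in KO and at 269, 189 and 192 in WT (-0.97, SE 0.36; adjusted p 0.117).

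Both core subunits had values nearer to 0: Uqcrc2 was at -0.13, and Uqcrc1 was at 133, 105 and 141 CPM in KO and at 143, 89.9 and 90.4 in WT (0.23, SE 0.29). Among the other accessory subunits, Uqcrb had a value of 0.03. Uqcrh, the hinge protein that touches cytochrome c1, was at 95.3, 92.7 and 364 CPM in KO and at 309, 95.4 and 99.95 in WT (0.13, SE 0.68). KO3 and WT1 alone were high for Uqcrh, and the other 4 libraries lay between 92.7 and 99.95 CPM. Of 9 genes of complex III, 4 were lower in KO without overlap (Uqcrq, Uqcr11, Uqcr10 and Cyc1) and 0 higher, beside 19.5% and 24.6% of all tested genes.

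Cytochrome c had a pattern like that of Cyc1. Cycs, the soluble carrier between complexes III and IV that also triggers apoptosis when released, was at 46.1, 103 and 54.7 CPM in KO1 to KO3 and at 218.5, 126 and 132 in WT1 to WT3. All KO libraries were below all WT libraries, KO2 being the nearest, with a log2 fold change of -1.22 (SE 0.40; edgeR adjusted p 0.0868). Without KO2 the value was -1.67 (adjusted p 0.00817) and that for Cyc1 -1.35 (adjusted p 0.0126), among 18.5% of all genes called lower in that fit. DESeq2 called both genes lower on all 6 libraries, at adjusted p 0.0171 and 0.0362.

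**Figure D2:**
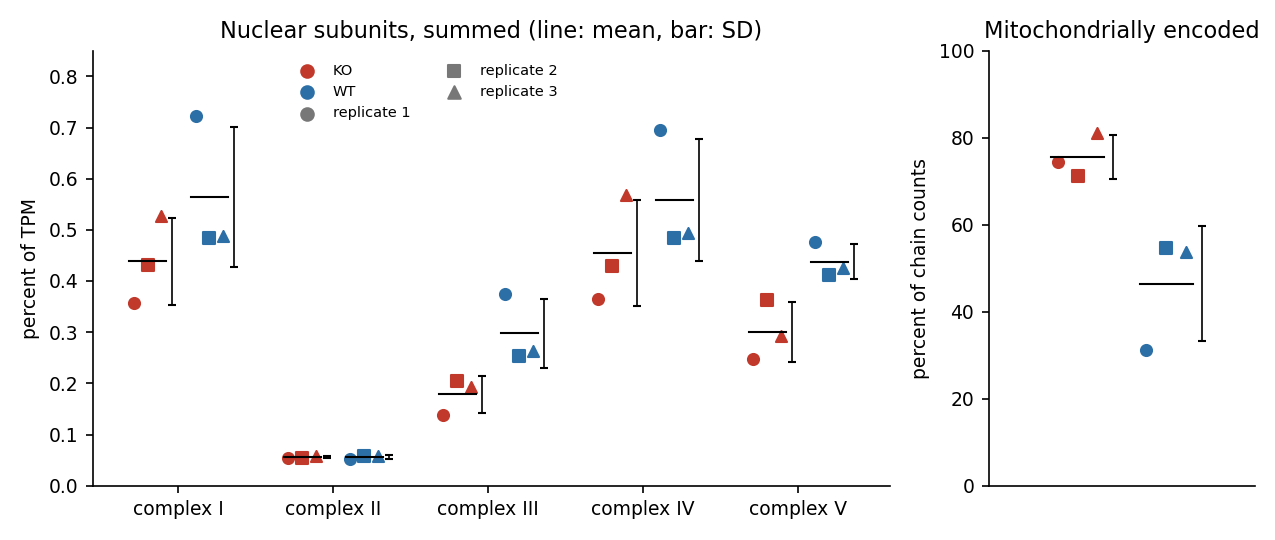
Left, summed TPM of each complex as a percent of all TPM; right, counts of the mitochondrially encoded genes as a percent of all chain counts; 1 marker per library, a line at the group mean and a bar of SD (n = 3). Complexes III and V and the mitochondrially encoded share separate the groups, complex II stays between 0.0512% and 0.0587%, and WT1 is highest for complexes I, III, IV and V.

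Complex IV as a whole did not separate the groups: it summed to 0.366%, 0.430% and 0.568% of TPM in KO1 to KO3 and to 0.695%, 0.484% and 0.495% in WT1 to WT3 (exact permutation p 0.4, 0.5 adjusted). The difference of means was -0.103 percentage points and -0.0347 without WT1. None of its genes passed the test. The muscle isoforms Cox6a2, Cox7a1 and Cox8b had log2 fold changes of 1.95, 1.74 and 3.61, and their common partners Cox6a1, Cox7a2 and Cox8a of -0.41, -0.96 and -0.16. The other alternative forms, Ndufa4l2, Cox4i2 and Cox6b2, were at 2.43, 1.47 and -1.34, and their common partners Ndufa4, Cox4i1 and Cox6b1 at -1.18, 0.24 and 0.05. For the muscle pairs, the share of the muscle form was compared between groups, as given below. The difference for the other pairs, and that between alternative and common forms as classes, was not tested.

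Cox8b, the muscle form of the smallest subunit, was at 2.59, 0.855 and 9.77 CPM in KO1 to KO3 and at 0.710, 0.142 and 0.208 in WT1 to WT3. KO2 was just above WT1, and KO3 was far above all others; the log2 fold change was 3.61 (SE 1.05; edgeR adjusted p 0.0648). Its partner Cox8a was at 175, 157 and 336 CPM in KO and at 380.3, 180 and 189 in WT (-0.16, SE 0.44). At 787 to 1248.7 TPM, Cox8a was the member of highest level per merged exon length. Such a ranking depends on the length used. Uqcrq has 1831 merged exon bases and a longest coding transcript of 405, against 619 and 550 for Cox8a. Set against Cox8a per length within a library, Cox8b made up 2.47%, 0.924% and 4.76% of Cox8 TPM in KO. In WT it made up 0.320%, 0.136% and 0.189%. The means were 2.72 ± 1.93% and 0.215 ± 0.0950% (SD, n = 3 each), without overlap (exact permutation p 0.1, 0.15 adjusted over 3 isoform pairs).

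Cox6a2, the muscle form of subunit 6a, was at 9.52, 3.79 and 22.6 CPM in KO and at 4.84, 2.54 and 1.90 in WT (1.95, SE 0.69; edgeR adjusted p 0.106). WT1 was above KO2 in this level, so the groups overlapped. Its partner Cox6a1 was at 158, 166 and 259 CPM in KO and at 408, 175 and 191 in WT (-0.41, SE 0.42). As a share of Cox6a TPM, Cox6a2 was 5.85%, 2.31% and 8.27% in KO and 1.21%, 1.47% and 1.02% in WT, without overlap (5.48 ± 3.001% and 1.23 ± 0.228%, SD, n = 3 each; exact permutation p 0.1, 0.15 adjusted).

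Cox7a1, the muscle form of subunit 7a, was high in KO3 alone: it was at 1.56, 0.769 and 8.18 CPM in KO and at 1.56, 1.05 and 0.506 in WT (1.74, SE 0.92; edgeR adjusted p 0.221). Its partner Cox7a2 was at 49.6, 80.0 and 99.1 CPM in KO and at 249.5, 95.5 and 100.2 in WT (-0.96, SE 0.46). The Cox7a1 share was 5.27%, 1.67% and 12.7% in KO and 1.09%, 1.91% and 0.883% in WT, where WT2 was above KO2 (exact permutation p 0.2, 0.2 adjusted). Without KO3, the difference of means fell from 5.26 to 2.18 percentage points. The differences for Cox6a and Cox8 were then 2.85 and 1.48, from 4.24 and 2.50. Cox7a2l, which joins complexes III and IV, was at 167, 107 and 306 CPM in KO and at 245, 98.7 and 104 in WT (0.38, SE 0.51).

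Skeletal muscle markers rose in the same libraries: 9 of 16 were called higher in KO, beside 11.2% of all genes, and 0 lower, with a median of 2.97. The 3 of smallest p were Pygm, muscle glycogen phosphorylase, Myh1, a fast myosin heavy chain, and Ttn, the sarcomere protein titin, with log2 fold changes of 3.67, 3.25 and 3.25 (edgeR adjusted p 0.0246 each). The 16 markers summed to 1442, 438 and 2829 CPM in KO1 to KO3 and to 286, 141 and 128 in WT1 to WT3. KO3, KO1 and KO2 stood in that order in this sum, as in all 3 muscle isoform shares. Myh7, the slow myosin, had 0 counts in KO3 and 7 to 42 in the other libraries. Without KO3, 6 of the 16 were called, and without KO1 or any 1 WT library 0 were. The brown fat genes Ucp1 and Cidea had 3 and 12 counts in all 6 libraries, and of 4 tested genes of that list 1 was called higher (Pparg, 3.61) and 0 lower, with a median of -0.60. Elovl3 and Dio2 of that list had values of -1.90 and -1.38, with all KO libraries below all WT libraries. Adipocyte markers summed to 254, 166 and 1081 CPM in KO and 107 to 176 in WT, and 2 of 10 were called higher. The part of muscle or fat cells in the isoform levels was not tested.

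**Figure D3:**
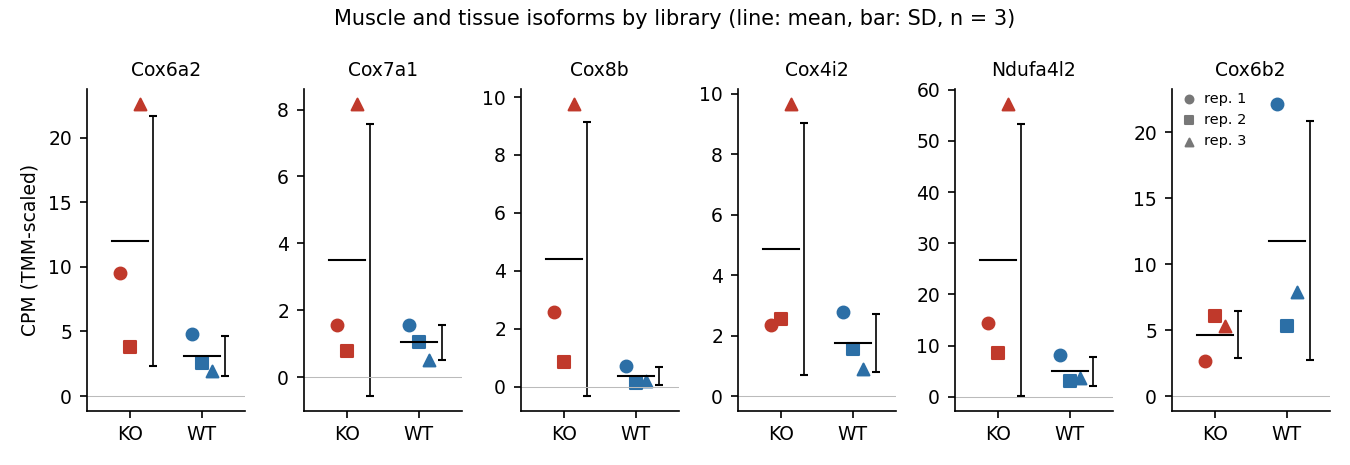
Level of each muscle or tissue isoform of complex IV in CPM, with 1 marker per library (shape gives the replicate), a line at the group mean and a bar of SD (n = 3). KO3 is highest in all panels but Cox6b2, where WT1 is highest at 22.2 CPM, and only Cox8b and Ndufa4l2 separate the groups.

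The pair Ndufa4 and Ndufa4l2 had opposite fold changes. Ndufa4, first described in complex I and now placed in complex IV, was at 45.1, 72.0 and 62.9 CPM in KO and at 220.2, 89.5 and 98.5 in WT, all KO libraries being below all WT libraries (-1.18, SE 0.41; edgeR adjusted p 0.1005). Ndufa4l2 was at 14.5, 8.49 and 57.3 CPM in KO and at 8.25, 3.02 and 3.63 in WT (2.43, SE 0.77; adjusted p 0.0803), where KO2 exceeded WT1 only slightly. Per length, Ndufa4l2 made up 28.9%, 12.9% and 53.5% of the pair in KO and 4.51%, 4.08% and 4.44% in WT. Every KO share was above every WT share. In KO3 Ndufa4l2 was the larger part of the pair on this scale but not in counts, at 1149 against 1261 for Ndufa4. The merged exon lengths used were 1095 bases for Ndufa4l2 and 1381 for Ndufa4. Their longest coding transcripts are 934 and 452 bases, and the share by those lengths was not computed.

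Pericytes, the mural cells of small vessels, are a known site of Ndufa4l2, and most of their markers were higher in KO. Of 8 pericyte markers, 5 were called higher and 0 lower, beside 11.2% and 0.226% of all genes (median 2.32), and Cspg4 had a value of -0.96. Pdgfrb, Abcc9 and Rgs5 had log2 fold changes of 2.41, 2.39 and 3.02 (edgeR adjusted p 0.0246, 0.0251 and 0.0272). The 8 markers summed to 636, 392.4 and 897 CPM in KO1 to KO3 and to 153 to 170.2 in WT. Endothelial (5 of 6), fibroblast (6 of 6), macrophage (7 of 8) and T cell (6 of 7) markers were also called higher and none lower. Of smooth muscle markers 1 of 7 was called higher, a share near the 11.2% of all genes. Without KO1 or any 1 WT library 0 of these markers were called, as were 0 of all genes. Their part in the level of Ndufa4l2 was not tested. Ndufa4l2 is also a known hypoxia target, and the hypoxia list showed 1 of 14 genes called higher, Ndrg1 (2.88, SE 0.49; adjusted p 0.0246), and 0 lower, with a median of -0.55. Pgk1 and Slc2a1, a glycolytic enzyme and the glucose transporter GLUT1, had values of -1.41 and -1.72 (adjusted p 0.0982 and 0.106).

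Cox4i2 was at 2.35, 2.56 and 9.67 CPM in KO and at 2.79, 1.57 and 0.893 in WT (1.47, SE 0.72; edgeR adjusted p 0.195), and its partner Cox4i1 at 297, 257 and 741 CPM in KO and 636, 236 and 226 in WT (0.24, SE 0.57). The Cox4i2 share of the pair was 1.53%, 1.92% and 2.50% in KO and 0.854%, 1.29% and 0.771% in WT, without overlap. Cox6b2, the testis form of subunit 6b, had the lowest fold change of all members: 2.65, 6.04 and 5.29 CPM in KO and 22.2, 5.30 and 7.89 in WT (-1.34, SE 0.61; adjusted p 0.171). Its partner Cox6b1 was at 87.2, 102 and 301 CPM in KO and at 283, 101 and 87.7 in WT (0.05, SE 0.62). KO3 and WT1 were high for both common isoforms. Of 5 testis markers only Prm1, with 2 to 41 counts, was tested; it was not called, and Tnp1 had 0 counts in all libraries. Cox7b, a subunit with no muscle form, was at 54.6, 78.4 and 72.1 CPM in KO and at 204, 96.9 and 101 in WT (-0.97, SE 0.36; adjusted p 0.118). Cox7b2 had 13 counts in 6 libraries, Cox8c 0, and Cox6c2 2 to 21 in each; none of these was tested. The accessory genes without an alternative form, Cox5a, Cox5b, Cox6c and Cox7c, had values of -0.05, -0.16, -0.57 and -0.26, and their groups overlapped. A count of 3 equals 0.0820 to 0.150 CPM at these depths.

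Complex V took a lower share of TPM in every KO library. It summed to 0.247%, 0.363% and 0.292% of TPM in KO1 to KO3 and to 0.477%, 0.412% and 0.425% in WT1 to WT3, with means of 0.301 ± 0.0584% and 0.438 ± 0.0340% (SD, n = 3 each; exact permutation p 0.1, 0.25 adjusted). KO2 was the nearest to the WT range. Of 17 genes, 16 had a negative fold change (median -0.40), and 4 were lower without overlap (Atp5b, Atp5g1, Atp5a1 and Atp5md; 23.5%, beside 19.5% of all genes).

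The catalytic beta subunit Atp5b was at 428, 873 and 386 CPM in KO and at 1179.5, 1017.3 and 1074.5 in WT (-0.96, SE 0.41; edgeR adjusted p 0.158). Unlike the small subunits, Atp5b had WT1 close to WT2 and WT3. KO2 was the KO library nearest to the WT range. Without KO2 the log2 fold change of Atp5b was -1.44 (edgeR adjusted p 0.0114). The alpha subunit Atp5a1, also long, was at 414, 513 and 509 CPM in KO and at 669, 526.3 and 525.9 in WT (-0.26, SE 0.31), KO2 and KO3 being only just below the WT range. In TPM the groups overlapped for Atp5b and Atp5a1, KO2 being above WT1. The other F1 genes, Atp5c1, Atp5d and Atp5e, had values of -0.40, -0.63 and -0.13 and overlapped. Atp5md, a small subunit of the membrane part, was at 51.1, 96.4 and 97.4 CPM in KO and at 294, 112 and 126 in WT (-1.12, SE 0.46). The highest fold changes of complex V were close to 0: 0.00 for Atp5pb, a stalk subunit, at 156, 154.5 and 312 CPM in KO and at 300.0, 169 and 153 in WT, and -0.08 for Atp5mpl, at 37.3, 42.9 and 118 in KO and 124, 40.3 and 46.0 in WT.

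The c ring, the rotor of the synthase, is made of 1 mature protein encoded by 3 genes. Atp5g1 was at 49.8, 87.1 and 58.8 CPM in KO and at 219, 93.4 and 92.5 in WT (-1.05, SE 0.42), without overlap. Atp5g2 was at 142, 189.5 and 298 CPM in KO and 395, 229 and 228 in WT (-0.44, SE 0.39), and Atp5g3 at 137, 168 and 245 CPM in KO and 300.5, 158 and 156 in WT (-0.16, SE 0.38). Within the ring, Atp5g3 made up 39.9%, 37.0% and 37.1% of the TPM in KO and 33.0%, 31.8% and 31.6% in WT. Atp5g3 thus had a larger share in every KO library, while the Atp5g1 and Atp5g2 shares overlapped between the groups.

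The mitochondrially encoded subunits went the other way. All 13 had a positive log2 fold change (median 2.15), and 2 were called higher in edgeR's test (15.4%, beside 11.2% of all genes): mt-Nd1 at 2.53 (SE 0.64; adjusted p 0.0436) and mt-Nd5 at 2.24 (SE 0.57; adjusted p 0.0441). mt-Nd1, a core membrane subunit of complex I, was at 1978.7, 1711.1 and 7080.3 CPM in KO1 to KO3 and at 764, 569 and 527 in WT1 to WT3. KO3 was the highest library for 13 of 13 genes, and without it the median was 1.00. No gene of the 13 was called when any 1 library other than KO2 was left out. Without KO2, 10 were called higher, beside 22.7% of all genes in that fit. DESeq2 called 10 of 13 higher, beside its own 17.5% of all genes.

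As a share of all counts on chain genes, mitochondrially encoded genes held 74.4%, 71.2% and 81.1% in KO1 to KO3 and 31.1%, 54.6% and 53.7% in WT1 to WT3. Every KO library was above every WT library (75.6 ± 5.04% and 46.5 ± 13.3%, SD, n = 3 each; exact permutation p 0.1), and the difference of means was 21.4 percentage points without WT1 and 29.1 with it. The mitochondrially encoded chain genes took 1.87%, 2.08% and 4.19% of all counts in KO and 0.701%, 1.12% and 1.10% in WT. Counts were very uneven over these genes, so both shares rest on some of them. Over the libraries mt-Co1 was at 3799.4 to 21937.6 CPM and mt-Cytb at 1528.4 to 8125.6. By contrast, mt-Co2 reached 96.0 CPM at most, and mt-Co3, mt-Atp6, mt-Atp8, mt-Nd3 and mt-Nd4l stayed below that in every library. The reason was not tested. Whether RNA quality had a part in this share was not tested.

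Genes that serve the chain without belonging to it had slightly negative medians. Their counts stand beside 22.2% and 9.57% of all genes higher and lower at an unadjusted p under 0.05, and beside 6.68% called lower by DESeq2. Of 46 assembly factors, 0 were called in either direction by edgeR, 0 and 5 were higher and lower at an unadjusted p under 0.05, and DESeq2 called 2 lower (median -0.30). Ndufaf4 and Ndufaf6, both for complex I, had values of -1.10 each (edgeR adjusted p 0.122 and 0.123). Of 16 tested regulators of mitochondrial biogenesis, 0 were called by edgeR, 0 and 3 were higher and lower at an unadjusted p under 0.05, and DESeq2 called 1 lower (median -0.32). Tfam, which packages and transcribes mitochondrial DNA, was at 31.3, 52.4 and 25.9 CPM in KO and at 93.6, 62.0 and 61.9 in WT (-0.99, SE 0.34; adjusted p 0.102). Every KO library was below every WT library for Tfam. Ppargc1a, the coactivator PGC-1 alpha, had 0 to 37 counts. Of 14 citric acid cycle genes outside complex II, 0 were called by edgeR, 1 and 3 were higher and lower at an unadjusted p under 0.05, and DESeq2 called 2 lower (median -0.34). Ogdh, of the 2-oxoglutarate dehydrogenase complex, was at 160, 116 and 211 CPM in KO and at 92.3, 85.4 and 88.9 in WT (0.87, SE 0.29; adjusted p 0.0963), without overlap, as for Sdha. Idh3g and Idh3a, of NAD-dependent isocitrate dehydrogenase, had values of -0.82 and -0.70.

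The order of the libraries was alike over the common subunits. Among the 79 tested genes that are neither tissue isoforms nor extra copies, WT1 was the highest library for 62, KO3 for 16 and WT2 for 1. KO1 was the lowest for 43, WT2 for 14, WT3 for 13, KO2 for 7 and KO3 for 2. Short transcripts stood out in WT1 and KO3. In WT1 against the mean of WT2 and WT3, the median log2 ratio was 1.29 for 57 common subunits with a coding length under 600 bases and 0.85 for 20 longer ones, beside 0.65 and -0.02 for other tested coding genes of those lengths. In KO3 against the mean of KO1 and KO2 the medians were 0.89 and 0.26, beside 0.41 and -0.12. Across genes, which are not independent replicates, Spearman's rho of the WT1 ratio with coding length was -0.60 over 77 common subunits and -0.50 over 14643 other genes. The KO over WT fold change had a median of -0.37 for the short and -0.18 for the longer subunits, beside 0.08 and 0.01 for other genes. The part of transcript length in the group differences was not tested.

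**Figure D4:**
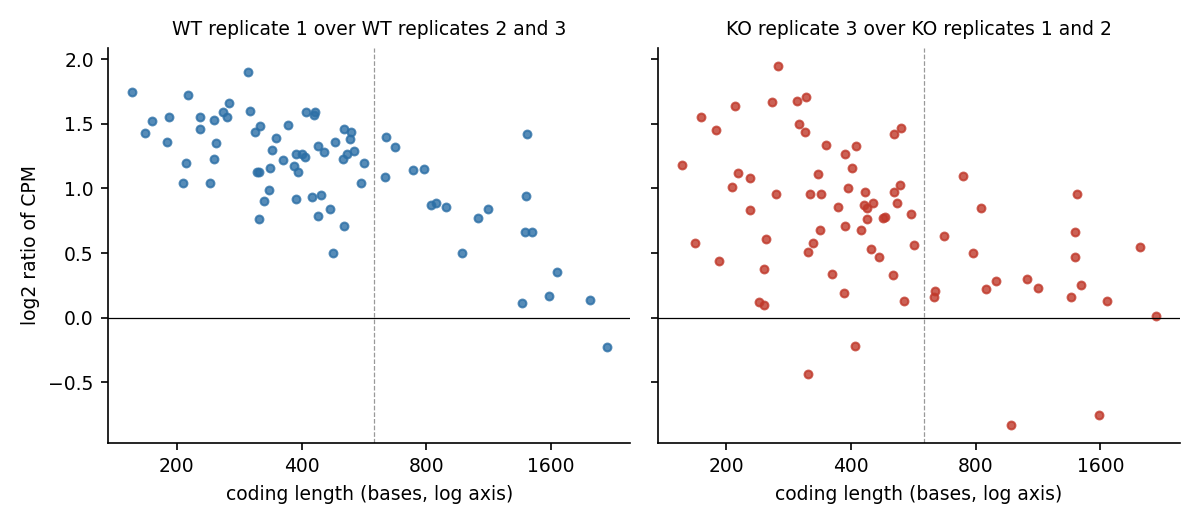
Log2 ratio of WT1 to the mean of WT2 and WT3, and of KO3 to the mean of KO1 and KO2, against coding length in bases (log axis, dashed line at 600) for the 77 common subunits with an annotated coding length. Short subunits lie highest in both panels: 76 of 77 points are above 0 for WT1 and 73 of 77 for KO3.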

How the data were processed

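Bulk Smart-seq2 libraries of 3 KO and 3 WT tumours were analysed from 1 table of whole-number counts per gene that the authors deposited, with gene positions and merged exon lengths, per the file headers. The build is mm10 and DESeq2 is named, per the submitters' processing notes; no aligner, counting tool or use of strand is named in the labels or headers. Reads of short subunits and their near-identical pseudogene copies may be split between them. All columns of counts were used.

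Counts were tested with edgeR 4.0.16 (R 4.3.3): TMM scaling, default filterByExpr, quasi-likelihood F test, group as the only term, two-sided, Benjamini-Hochberg adjustment over 18621 genes. SE was computed from the fold change and F. TPM used the deposited exon lengths. Shares per library were compared by exact two-sided permutation. Alternatives used DESeq2 1.42.0, limma-voom 3.58.1, other scalings, filters and exon lengths, and libraries left out; leaving out KO3 and WT1 together and the transcript length were added after seeing the data. The edgeR script was tested on simulated data. Separate animals are implied but not stated, so p-values measure the spread between these libraries, which may be technical.

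The genes were taken by symbol; the lists of mitochondrially encoded, assembly, biogenesis, citric acid cycle and hypoxia genes and of cell markers, and the rule for named genes, were chosen with earlier results of these data known. Named were the isoforms and partners, Cycs, Cyc1, Sdha to Sdhd, the 2 highest and 2 lowest fold changes of complexes I, III, IV and V, any gene past the threshold, up to 3 genes of smallest p per list, and Siglece; Ndufa2, Atp5a1, Uqcr10 and the other genes given by value were chosen after their values were seen. The 70 promoters are RefSeq windows of 250 bases before to 50 after the start.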

Additional observations from a re-analysis of the deposited data

How the results depend on the processing

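No gene of the respiratory chain was called under RLE scaling, no composition scaling, robust fitting, the stricter filter or limma-voom. DESeq2 called 3 higher (Cox8b, Ndufa4l2, Cox6a2) and 6 lower (Cycs, Ndufa4, Cyc1, Uqcrq, Cox7b, Atp5b). The test without a low-count filter called the same 3 higher and 1 lower (Cycs). Over the leave-one-out tests the counts were 0 to 4 higher and 0 to 5 lower, all calls being made without KO2 (Cox8b, Ndufa4l2, Cox6a2 and Sdha higher; Cycs, Cyc1, Atp5b, Atp5g1 and Ndufa4 lower). Over all genes the calls were 2083 higher and 42 lower, against 3266 and 1244 with DESeq2, 988 higher with limma-voom, 24 lower with no composition scaling, 476 lower with no filter, and 0 to 4449 higher and 0 to 3629 lower with 1 library left out; without KO3 and WT1 they were 0 and 0, with 3411 higher and 704 lower at an unadjusted p under 0.05. The cause was not tested. No composition scaling moved the median of all genes by -0.13.

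The complex V difference was -0.203 percentage points with the longest coding transcript as length. The other differences of complex and isoform shares moved by less than the larger SD of the groups; that of complex II, near 0, changed sign, to 0.00302 as a share of counts. The groups' shares of complexes III and V did not overlap under any length or unit of share tried. Their summed CPM, scaled by TMM, did overlap, KO3 being above WT2 and WT3 for both complexes. Counted in TPM, chosen as a scale after seeing the data, 34 single genes in place of 16 were lower without overlap and 7 in place of 3 higher.

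Fold changes near 0 changed sign: Atp5pb was at -0.06 with DESeq2 and with RLE scaling, -0.14 without composition scaling and -0.03 without a filter. Cox6b1 was at -0.01, -0.01 and -0.08 under the first 3 of these, and without composition scaling Sdhd was at -0.07 and Uqcrh at -0.02. Leaving out 1 library gave ranges of -0.46 to 0.20 for Atp5g3, -0.84 to 0.59 for Atp5mpl, -0.45 to 0.35 for Atp5pb, -0.44 to 0.88 for Cox4i1, -0.71 to 0.07 for Cox6a1, -0.77 to 0.77 for Cox6b1, -0.15 to 0.91 for Cox7a2l, -0.62 to 0.25 for Cox8a, -0.17 to 1.13 for Ndufa1, -0.51 to 0.86 for Prm1 (1.33 without KO3 and WT1), -0.36 to 0.17 for Sdhb, -0.25 to 0.25 for Sdhd and -0.88 to 0.89 for Uqcrh. No paired analysis was possible because the labels give the libraries no shared replicate numbers. Cox8c, Cox7b2 and Ndufa11b lie at or near the limit that depth allows.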

Other observations

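Among the 11 names set aside as pseudogenes, Ndufa12-ps had 305, 645 and 78 counts in KO1 to KO3 and 3346, 1138 and 237 in WT1 to WT3. For each 100 counts on Ndufa12, an accessory subunit of complex I, this was 47.0, 40.5 and 7.99 in KO and 78.9, 59.6 and 10.8 in WT. KO3 and WT3 were low in this ratio, although WT2 and WT3 were alike in the level of Ndufa12 itself, at 54.4 and 65.2 CPM. Atp5k-ps2 had 22, 27 and 2 counts in KO and 180, 43 and 79 in WT. Ndufb1-ps, annotated as a non-coding gene at a shared promoter, had 778, 836 and 1187 counts in KO and 1478, 529 and 503 in WT. Mitochondrial ribosomal protein genes, outside the respiratory chain, had a median log2 fold change of -0.50 over 78 tested. Of these, 0 were called in either direction by edgeR, beside 11.2% of all genes called higher and 0.226% lower. At an unadjusted p under 0.05 in that test, 14 were lower, beside 9.57% of all genes.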
